A study of Mus musculus with 36 samples.

Results

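Oxidative phosphorylation (OXPHOS) genes were followed in the mRNA of lung endothelial cells (ECs) of 3 mouse genotypes, Prog-Tg, LA-Tg and WT. Members were all genes of the EC mRNA count table named as subunits of complexes I to V. These were the Nduf symbols of the a, b, c, s and v series that end in a number, Ndufab1, Sdha to Sdhd, all symbols that begin with Uqcr, with Cox4 to Cox8 or with Atp5, and the mt-Nd, mt-Co, mt-Cytb and mt-Atp genes. Assembly factors such as Ndufaf2 were not members. This gave 103 of the 51826 genes in the table. Of these, 90 are nuclear and 13 are encoded by the mitochondrial genome. The nuclear set holds 37 genes of complex I, 4 of complex II, 8 of complex III, 18 of complex IV and 17 of complex V, plus 6 pseudogenes with matching names.

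Prog-Tg mice carried the endothelial driver Cdh5-tTA and a tet-operated lamin A minigene with the progeria mutation G608G, LA-Tg mice carried the same driver with the wildtype lamin A minigene, and WT mice were littermates. Each genotype had 3 libraries, which the study describes as biological replicates. The Cdh5 promoter directs the transgene to the endothelium only, and the minigene is expressed on top of the animal's own Lmna. The study reports that the Prog-Tg minigene yields progerin and human wildtype lamin A in similar amounts. ECs came from mice 10 to 15 days old, were enriched with ICAM-2 beads and were grown in culture to passage 3, so levels are those of cultured cells.

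The respiratory chain passes electrons from NADH (complex I) and succinate (complex II) through ubiquinone to complex III, cytochrome c and complex IV, and ATP synthase (complex V) uses the resulting proton gradient. Most subunits are encoded in the nucleus, complex II entirely so, while a few membrane subunits of the other complexes are encoded by mitochondrial DNA and are transcribed inside the organelle as long polycistronic RNAs. ECs are known for drawing much of their ATP from glycolysis.

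Library totals were 17961152 to 67602012 counts. Levels are in CPM, counts per 1000000 counts of the genes tested, with TMM scaling, and differences were tested over the 14584 genes kept by a low-count filter with the edgeR quasi-likelihood F test. As a check of the labels, Lmna was at 275, 470 and 548 CPM in Prog-Tg, 251, 401 and 421 CPM in LA-Tg, and 284, 177 and 200 CPM in WT ECs. Lmna groups overlapped, and the reads of the human minigene were not separated from those of the mouse gene. The 7 endothelial markers summed to 5230 to 7470 CPM in Prog-Tg, 7430 to 8330 CPM in LA-Tg and 6940 to 7560 CPM in WT libraries. Of the 7, only 1, Cdh5 at 0.27, had a log2 fold change above 0 in Prog-Tg versus WT (median -0.47). In LA-Tg versus WT 3 were above 0 (median -0.04). In Prog-Tg versus WT 0 of the 7 passed the study thresholds given below, beside 2.76% of all genes tested. Lung epithelial markers summed to at most 0.303 CPM and erythroid markers to at most 0.259 CPM in any library. Fibroblast markers summed to 152 to 870 CPM in Prog-Tg, 23.7 to 640 CPM in LA-Tg and 114 to 466 CPM in WT libraries. Pericyte and smooth muscle markers summed to 20.3 to 93.6 CPM in Prog-Tg, 1.43 to 295 CPM in LA-Tg and 3.44 to 69.7 CPM in WT libraries, leukocyte markers to at most 50.7 CPM and striated muscle markers to at most 8.01 CPM in any library. The 7 lymphatic endothelial markers summed to 5250, 1650 and 2550 CPM in the Prog-Tg libraries, 9240, 1430 and 7780 CPM in the LA-Tg libraries, and 6380, 8610 and 5110 CPM in the WT libraries. Of the 6 lymphatic markers tested, 0 had a log2 fold change above 0 in Prog-Tg versus WT (median -1.33) and 1 passed the study thresholds given below, beside 2.76% of all genes tested, and the summed levels of the 2 genotypes overlapped.

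In each of the 3 comparisons no OXPHOS gene passed the thresholds the study used (fold change over 1.5 at an unadjusted p under 0.05), whether nuclear or mitochondrial. The most visible pattern was the high mitochondrial levels of single transgenic libraries, and whether these go with the genotype or with the library was not tested. The 7 mitochondrial genes with counts were all highest in LA-Tg replicate 2, and all but mt-Nd6 were next highest in Prog-Tg replicate 2. Nuclear subunits as a group varied little. The other 6 of the 13 mitochondrial genes were listed at 0 in all 9 libraries, and these lie in a stretch with a near-identical copy on chromosome 1.

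The mitochondrial genes listed at 0 were mt-Co2, mt-Atp8, mt-Atp6, mt-Co3, mt-Nd3 and mt-Nd4l. They encode subunits of complex IV (mt-Co2 and mt-Co3), of ATP synthase (mt-Atp8 and mt-Atp6) and of complex I (mt-Nd3 and mt-Nd4l), and cells that respire need all of them. Genes directly beside them on the same primary transcripts had counts of 37474 or more in every library. In GRCm38 all 6 lie between positions 6390 and 11042 of the mitochondrial genome, and this stretch has a nuclear copy at chr1:24611535-24616188 on the minus strand. The copy is 99.94% identical over 4654 aligned bases, with 2 mismatches (A6393T in mt-Co1 and T9461C in mt-Nd3, numbered on the mitochondrial genome with the mitochondrial base first) and 1 gap base. The sequences below, from the GRCm38 reference, are shown because they make the identity visible. The first 60 bases of mt-Co2 (chrM:7013-7072) and of mt-Atp6 (chrM:7927-7986) are the same in the copy (chr1:24615506-24615565 and chr1:24614592-24614651), and the window around the start of mt-Nd3 (chrM:9431-9491 against chr1:24613087-24613147) holds the differing base, in capitals.
mt-Co2, mitochondrial genome: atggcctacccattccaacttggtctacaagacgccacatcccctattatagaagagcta
mt-Co2, chromosome 1 copy: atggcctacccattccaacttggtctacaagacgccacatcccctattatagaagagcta
mt-Atp6, mitochondrial genome: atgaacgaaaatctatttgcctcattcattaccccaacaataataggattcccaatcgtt
mt-Atp6, chromosome 1 copy: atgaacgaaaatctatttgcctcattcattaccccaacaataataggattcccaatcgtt
mt-Nd3, mitochondrial genome: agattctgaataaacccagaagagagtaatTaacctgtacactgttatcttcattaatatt
mt-Nd3, chromosome 1 copy: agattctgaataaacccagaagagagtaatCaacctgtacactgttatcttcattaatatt

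A read from most of this stretch has 2 equally good places in the reference. How reads with more than 1 place were counted is not given in the sources used here, and the part of the copy in the 0 counts was not tested. The 7 annotated pseudogenes of the copy had 85 counts in all 9 libraries together, with at most 11 for one pseudogene in one library. Of the 7 mitochondrial genes with counts, mt-Nd1, mt-Nd2, mt-Nd5, mt-Nd6 and mt-Cytb lie wholly outside the stretch copied on chromosome 1, mt-Co1 has 31.3% of its bases in it and mt-Nd4 63.6%. The next longest nuclear copies were on chromosome 2 (chrM:4441-7699, 97.36% identical) and chromosome 13 (chrM:12446-13400, 95.18% identical). They reach into mt-Nd2 and mt-Co1, and into mt-Nd5, and their part in the counts was not tested. For the 6 genes at 0 no level and no fold change can be given, and they are no evidence of absent transcripts.

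**Figure D1:**
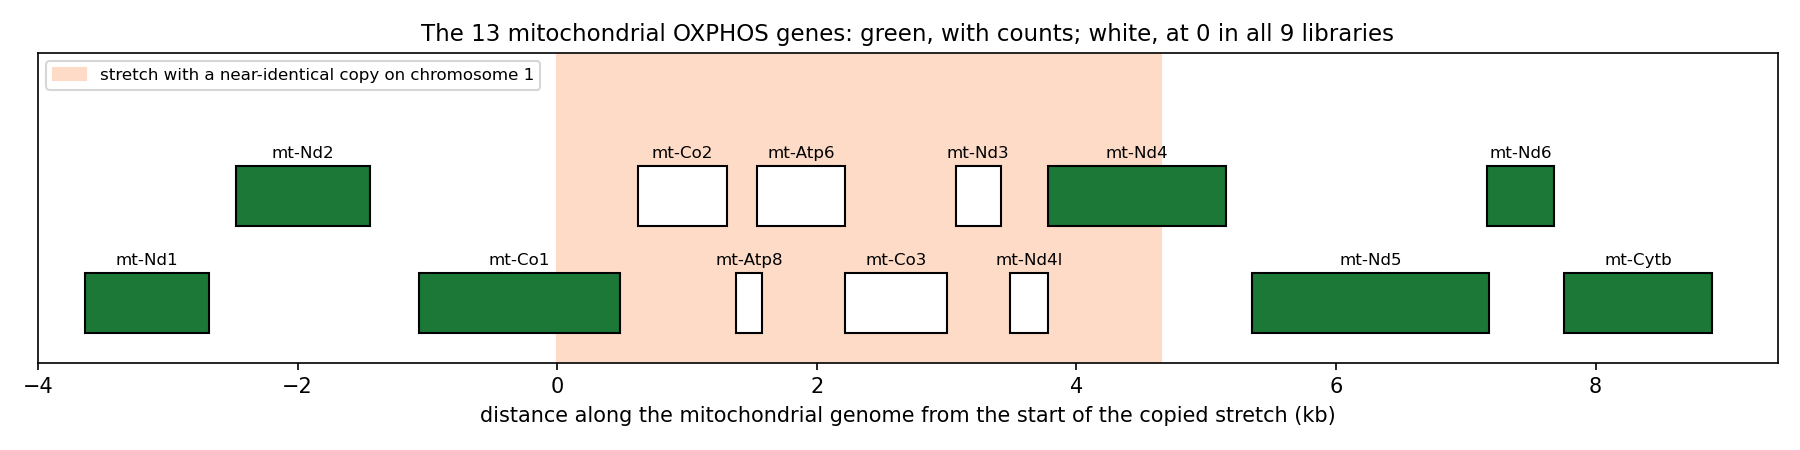
Map of the 13 mitochondrial OXPHOS genes along the mitochondrial genome, in kb from the start of the stretch that is copied on chromosome 1 (shaded). Boxes are genes, green with counts and white at 0 in all 9 libraries, and all 6 white boxes lie inside the shaded stretch.

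The 7 mitochondrial genes with counts made up 2.83%, 4.1% and 2.01% of all counts in the Prog-Tg libraries, 2.89%, 4.36% and 2.15% in the LA-Tg libraries, and 2.53%, 2.41% and 1.74% in the WT libraries. The highest share in each transgenic genotype was that of replicate 2, and the ranges overlapped. The share averaged 2.98% ± 1.05 in Prog-Tg, 3.13% ± 1.12 in LA-Tg and 2.23% ± 0.426 in WT ECs (SD, n = 3 each). Per kb of sequence outside the copied stretch, mt-Co1, the catalytic subunit of cytochrome c oxidase, was the most abundant at 10220 CPM per kb. mt-Nd4 had 5113, mt-Cytb 4167, mt-Nd1 3585, mt-Nd2 2265 and mt-Nd5 2173 CPM per kb. For mt-Co1 and mt-Nd4 this assigns all counts to the bases outside the copied stretch. mt-Nd6, the only protein gene transcribed from the other strand, was lowest at 345 CPM per kb. The libraries were made from poly(A) RNA, and the part of this selection in the levels of single mitochondrial genes was not tested. mt-Nd5 and mt-Nd6 overlap at their ends on opposite strands. The setting for strand in the counting is not given in the sources used here, so reads in the overlap cannot be assigned.

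mt-Cytb, the cytochrome b subunit at the core of complex III, had the largest fitted difference from WT among the mitochondrial genes. It was at 4227, 8672 and 3666 CPM in Prog-Tg, 3486, 10031 and 3586 CPM in LA-Tg, and 3088, 3660 and 2487 CPM in WT ECs. All 3 Prog-Tg libraries lay above all WT libraries, though the nearest were almost equal, while LA-Tg overlapped WT. The log2 fold change was 0.84 ± 0.52 (SE) in Prog-Tg versus WT (adjusted p = 0.83) and 0.89 ± 0.52 in LA-Tg versus WT (adjusted p = 1 after rounding). The 95% interval in Prog-Tg versus WT was -0.34 to 2.02. Without Prog-Tg replicate 2 the value in Prog-Tg versus WT was 0.36, and without LA-Tg replicate 2 the value in LA-Tg versus WT was 0.20.

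Among the mitochondrial subunits of complex I, mt-Nd1 was at 3664, 4341 and 3145 CPM in Prog-Tg, 3456, 5556 and 2660 CPM in LA-Tg, and 3109, 2690 and 2257 CPM in WT ECs. Prog-Tg and WT did not overlap for mt-Nd1, and the log2 fold change was 0.47 ± 0.32 (SE, adjusted p = 0.83). mt-Nd2 was at 2006, 3558 and 2039 CPM in Prog-Tg, 2058, 4146 and 1966 CPM in LA-Tg, and 1634, 2051 and 1700 CPM in WT ECs, with 1 Prog-Tg and 1 LA-Tg library well above the rest. mt-Nd4 was at 2370, 3879 and 1921 CPM in Prog-Tg, 2529, 4133 and 1928 CPM in LA-Tg, and 2043, 2342 and 1955 CPM in WT ECs. In mt-Nd4 the lowest library of each transgenic genotype lay below all WT libraries. mt-Nd5 was at 3994, 5743 and 2637 CPM in Prog-Tg, 4327, 6609 and 2562 CPM in LA-Tg, and 3295, 3600 and 2902 CPM in WT ECs, again with the lowest library of each transgenic genotype below WT.

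mt-Nd6 was at 215, 160 and 161 CPM in Prog-Tg, 177, 318 and 156 CPM in LA-Tg, and 157, 127 and 141 CPM in WT ECs. Here the high library was LA-Tg replicate 2 alone, since Prog-Tg replicate 2 had the lowest value of its genotype. Relative to the WT mean, Prog-Tg replicate 2 was at 1.13 for mt-Nd6, against 1.62 to 2.82 for the other 6 genes. LA-Tg replicate 2 was at 2.25 for mt-Nd6, against 1.88 to 3.26 for the others. The log2 fold change of mt-Nd6 was 0.34 ± 0.27 (SE) in Prog-Tg versus WT and 0.62 ± 0.27 in LA-Tg versus WT (adjusted p = 0.83 and 1). In LA-Tg versus WT it passed the study thresholds without LA-Tg replicate 1 (0.74) or replicate 3 (0.80), and was 0.23 without LA-Tg replicate 2.

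mt-Co1 was at 11401, 16527 and 6049 CPM in Prog-Tg, 12587, 16634 and 7894 CPM in LA-Tg, and 11674, 8579 and 6293 CPM in WT ECs. The 3 genotypes overlapped over most of their ranges for mt-Co1, and the lowest value was that of Prog-Tg replicate 3. The log2 fold change was 0.36 ± 0.48 (SE) in Prog-Tg versus WT and 0.48 ± 0.48 in LA-Tg versus WT.

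**Figure D2:**
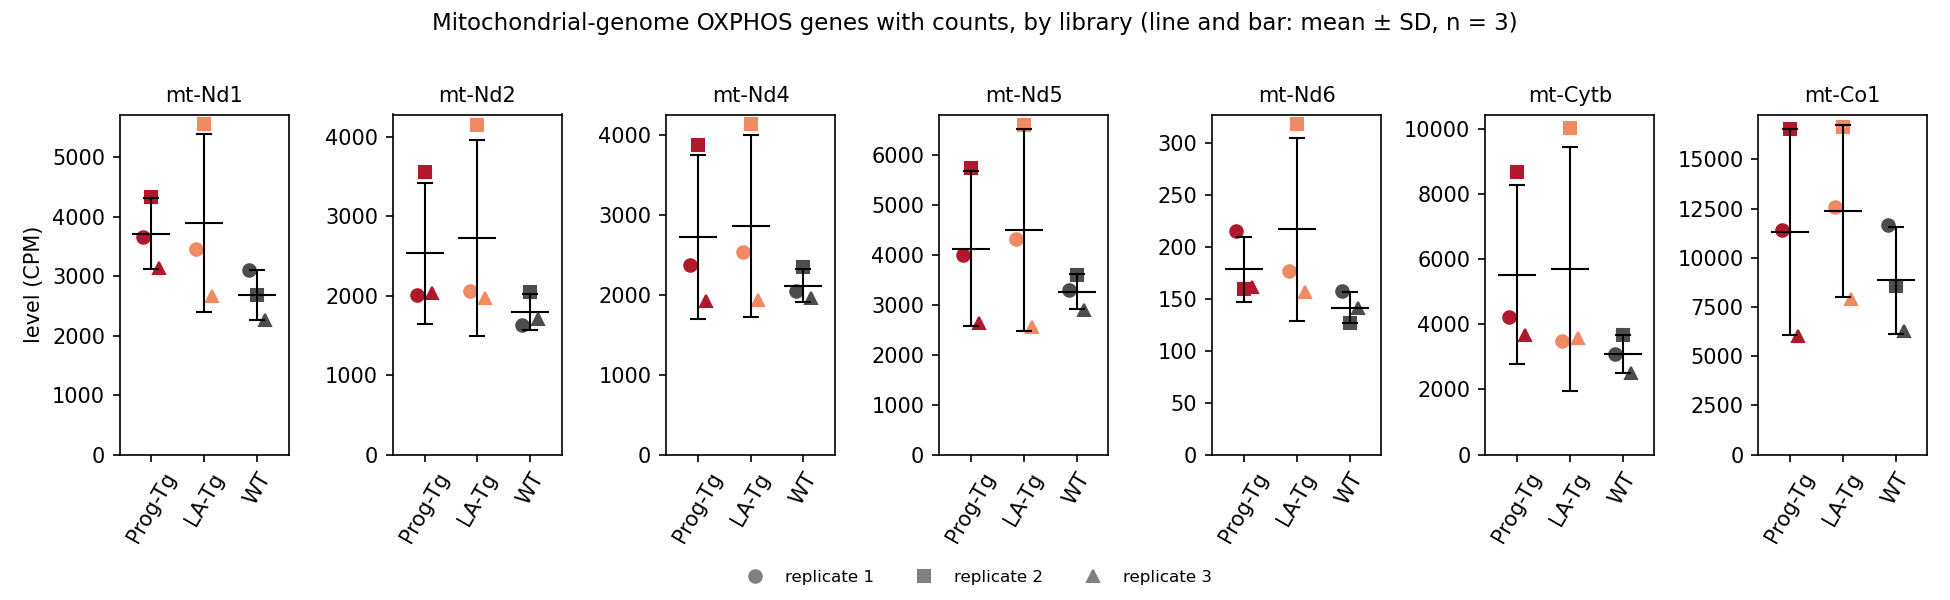
Levels in CPM (linear axes from 0) of the 7 mitochondrial OXPHOS genes with counts in Prog-Tg, LA-Tg and WT ECs, 1 point per library with its replicate number as marker shape, and the mean with SD (n = 3). LA-Tg replicate 2 (square) is the highest library for all 7 genes, and Prog-Tg replicate 2 (square) stands above the other Prog-Tg libraries for 6 of them, mt-Nd6 being the exception.

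The median log2 fold change of the 7 mitochondrial genes was 0.37 in Prog-Tg versus WT, 0.53 in LA-Tg versus WT and -0.10 in Prog-Tg versus LA-Tg, beside -0.01, -0.01 and -0.00 over all genes tested. By edgeR 0 of the 7 passed the study thresholds, which 2.76%, 0.679% and 1.25% of all genes tested did in these comparisons. None reached an unadjusted p of 0.05 by edgeR (0 of 7) or limma-voom, while DESeq2 called mt-Nd6 in LA-Tg versus WT, at a log2 fold change of 0.62. For mt-Nd1, mt-Nd6 and mt-Cytb, 3 of 7, all Prog-Tg libraries lay above all WT libraries, as 6.56% of all genes tested did, while 0 of 7 were without overlap in the other comparisons. Without Prog-Tg replicate 2 the median in Prog-Tg versus WT was 0.17, and without Prog-Tg replicate 3 it was 0.58. Without LA-Tg replicate 2 the median in LA-Tg versus WT was 0.18, and the median in Prog-Tg versus LA-Tg turned to 0.28. In that comparison it was -0.43, -0.06 and 0.11 when Prog-Tg replicates 2, 1 and 3 were left out in turn, and -0.15 or -0.29 when LA-Tg replicate 1 or 3 was. The within-genotype SD of these genes had a median of 0.45 on the log2 scale, against 0.36 over all genes tested. It was 0.25 over the 6114 genes with a mean CPM like that of the nuclear members. Genes at the level of the mitochondrial ones were not compared apart. Prog-Tg replicate 2 and LA-Tg replicate 2, the libraries with the highest mitochondrial shares, were also those with the lowest sums of lymphatic markers given above. Prog-Tg replicate 3, with the next lowest lymphatic sum (2550 CPM), had a mitochondrial share of only 2.01%, the second lowest of all. The part of the cell makeup in the mitochondrial levels was not tested. In such cultures a change in the number of cells of a type and in RNA per cell cannot be told apart.

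The nuclear members summed to 0.576%, 0.658% and 0.633% of all counts in the Prog-Tg libraries, 0.595%, 0.578% and 0.709% in the LA-Tg libraries, and 0.593%, 0.616% and 0.554% in the WT libraries. Here LA-Tg replicate 3 was highest and WT replicate 3 lowest. LA-Tg replicate 3 also had the highest sum of pericyte and smooth muscle markers (295 CPM, against at most 93.6 CPM in any other library), and the part of such cells in the nuclear share was not tested. Of the 84 nuclear members other than pseudogenes, 78 passed the low-count filter. The 6 that did not are all tissue isoforms of complex IV subunits. The 6 pseudogenes had at most 7 counts each over all 9 libraries.

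Per kb of annotated exon the nuclear members tested ranged over 0.702 to 209 CPM per kb, with a median of 28.5. The highest were Cox4i1 (209 CPM per kb) and Cox6b1 (204), subunits of complex IV. They were followed by Atp5b (188) and Atp5a1 (157), the beta and alpha subunits that form the catalytic head of ATP synthase. In complex III, Uqcr10 (98.4) and Uqcrh (77.5), which are small accessory subunits, were highest. In complex I the highest were the accessory subunits Ndufa2 (88.7) and Ndufc2 (82.6), and in complex II Sdha (65.6) and Sdhd (59.0). The lowest in each complex were Ndufab1 (3.00), the mitochondrial acyl carrier protein, Sdhc (25.6), Uqcrb (25.9), Cox6b2 (3.55) and Atp5g2 (0.702 CPM per kb). By complex the median was 26.7 CPM per kb for complex I, 43.3 for complex II, 53.2 for complex III, 64.6 for complex IV and 26.7 for complex V. Annotated exons include rarely used ends, so per-kb levels of genes with long alternative exons are low estimates.

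Several nuclear subunits also have near-identical sequence elsewhere in the genome. Whether such a stretch was a processed copy or a repeat was not tested, and neither was its part in the counts. Atp5h had 7308 such alignments and Atp5g1 259. At 98% identity or more over at least 50 bases, 19 of the 78 genes had some transcript sequence elsewhere in the genome. The share was 84.4% to 90.5% for Uqcrb, Atp5h, Atp5l, Uqcr11 and Ndufs3, 64.3% for Ndufs5, 64.2% for Cox5b, 50.1% for Atp5f1, 49.8% for Ndufb4 and 44.3% for Ndufa12. Among those with less it was 32.6% for Atp5g1, 22.6% for Cox7a2l, 16.9% for Atp5g2 and 14.5% for Ndufab1. The 10 genes with over 40% had a median level of 15.4 CPM per kb and the 9 genes with less had 4.9, against 38.3 in the 59 genes without such a copy. The lower median was thus in the group with less copied sequence. Some genes with copies also have long annotated exons, such as Ndufab1 (6883 bases) and Atp5l (6443), which lowers their level per kb. Others do not, such as Uqcr11 (641 bases), and the part of exon length in these medians was not tested. Levels of the genes with copies are uncertain, since their reads could be split between places or left out.

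Prog-Tg versus WT asked whether the G608G minigene, which yields progerin and wildtype lamin A, alters the EC transcriptome. Of the nuclear OXPHOS genes no member passed the study thresholds (0 of 78, against 2.76% of all genes tested, 0.939% as higher and 1.82% as lower). The count at an unadjusted p under 0.05 was 0 of 78 also with limma-voom and with DESeq2. Over all genes edgeR gave 496 (3.4%) at that level and none after adjustment, while DESeq2 gave 2 after adjustment. The median log2 fold change of the 78 was 0.09, with a range of -0.42 to 1.19, and 61 of 78 values were above 0, beside 49% of all genes. The median was 0.04 without Prog-Tg replicate 2, 0.06 without WT replicate 3, 0.14 without WT replicate 2 and 0.17 without Prog-Tg replicate 1. For 54 of the 78 the 95% interval lay within 1.5-fold in both directions, and for 75 within 2-fold. By complex the medians were 0.08 for complex I, 0.08 for complex II, 0.09 for complex III, 0.21 for complex IV and 0.09 for complex V.

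The nuclear member with the smallest unadjusted p was Cox7b, an accessory subunit of complex IV. It was at 67.0, 96.7 and 78.4 CPM in Prog-Tg, 70.0, 80.7 and 78.8 CPM in LA-Tg, and 66.8, 66.0 and 65.7 CPM in WT ECs. The WT libraries were nearly equal, and both transgenic genotypes lay above them, Prog-Tg replicate 1 only just. The log2 fold change was 0.29 ± 0.15 (SE) in Prog-Tg versus WT (adjusted p = 0.83) and 0.21 ± 0.15 in LA-Tg versus WT (adjusted p = 1).

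The other complex IV genes with small p in Prog-Tg versus WT were Cox6c, Cox6a1, Cox6b2 and Cox8a. Cox6c averaged 87.5 ± 16.1 CPM in Prog-Tg and 74.3 ± 5.76 CPM in WT ECs (SD, n = 3 each), with a log2 fold change of 0.24 ± 0.15 (SE). Cox6a1 was at 79.1, 134 and 126 CPM in Prog-Tg and 80.2, 85 and 102 CPM in WT ECs, so that replicate 1 of Prog-Tg lay below every WT library. Cox8a averaged 43.7 ± 4.91 CPM in Prog-Tg and 37.2 ± 4.75 CPM in WT ECs (SD, n = 3 each). These differences were of the size of the SD within a genotype.

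In complex I, Ndufa10, an accessory subunit, was at 84.6, 103 and 86.9 CPM in Prog-Tg, 88.1, 96.1 and 98.1 CPM in LA-Tg, and 84.2, 80.7 and 77.6 CPM in WT ECs. Both transgenic genotypes lay above WT, and the log2 fold change was 0.18 ± 0.12 (SE) in Prog-Tg versus WT and 0.22 ± 0.12 in LA-Tg versus WT (adjusted p = 0.83 and 1). Ndufa1 was at 32.7, 39.8 and 35.3 CPM in Prog-Tg and 30.6, 31.9 and 30.5 CPM in WT ECs, without overlap. Ndufa12 was at 19.2, 21.2 and 22.1 CPM in Prog-Tg, 18.4, 17.6 and 17.8 CPM in LA-Tg, and 20.0, 14.9 and 18.1 CPM in WT ECs. Prog-Tg lay above LA-Tg and overlapped WT for Ndufa12, whose transcript is among those with a copy.

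Of the 78 nuclear members, 4 had all Prog-Tg libraries above all WT libraries (Ndufa1, Ndufs1, Ndufa10 and Cox7b) and 3 had all below (Ndufa4, Ndufv1 and Atp5sl). Over all genes tested 6.56% lay above and 7.17% below without overlap, a background that the members' counts did not exceed. Ndufs1, Ndufa4 and Ndufv1 were named after their values were seen. Ndufa4, which carries a complex I name but is now assigned to complex IV, was at 76.6, 54.3 and 75.9 CPM in Prog-Tg and 79.7, 119 and 76.9 CPM in WT ECs, a log2 fold change of -0.42 ± 0.31 (SE). Atp5sl, named Dmac2 in the annotation used here and not a subunit of ATP synthase, was matched by its symbol only.

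The 4 subunits of succinate dehydrogenase (complex II) differed little. Sdha, the flavoprotein that oxidises succinate, was at 253, 308 and 238 CPM in Prog-Tg, 267, 308 and 284 CPM in LA-Tg, and 263, 269 and 246 CPM in WT ECs. Sdhb, the iron-sulfur subunit, was at 55.8, 73.5 and 69.8 CPM in Prog-Tg, 56.3, 63.9 and 66.8 CPM in LA-Tg, and 57.6, 53.1 and 61.0 CPM in WT ECs. The membrane anchors averaged 80.3 ± 6.10 CPM in Prog-Tg, 86.6 ± 7.77 CPM in LA-Tg and 83.2 ± 15.4 CPM in WT ECs for Sdhc, and 74.0 ± 7.36, 76.1 ± 6.19 and 67.7 ± 5.78 CPM in these genotypes for Sdhd (SD, n = 3 each). All groups overlapped, and the log2 fold changes in Prog-Tg versus WT were between -0.05 and 0.21.

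In ATP synthase, the catalytic subunit gene Atp5b averaged 843 ± 77.0 CPM in Prog-Tg, 801 ± 71.8 CPM in LA-Tg and 744 ± 28.8 CPM in WT ECs (SD, n = 3 each). Its log2 fold change was 0.18 ± 0.16 (SE) in Prog-Tg versus WT, with a 95% interval of -0.18 to 0.54. Atp5a1 averaged 486 ± 34.1 CPM in Prog-Tg, 516 ± 49.3 CPM in LA-Tg and 474 ± 35.8 CPM in WT ECs (SD, n = 3 each), with all 3 genotypes overlapping. Atp5f1, a subunit of the peripheral stalk, was at 101, 132 and 108 CPM in Prog-Tg, 102, 139 and 109 CPM in LA-Tg, and 101, 103 and 90.8 CPM in WT ECs, with replicate 2 highest in every genotype. In complex III, Uqcr10 averaged 60.7 ± 11.4 CPM in Prog-Tg and 52.3 ± 2.38 CPM in WT ECs, and Uqcrh 90.9 ± 5.97 CPM in Prog-Tg and 92.8 ± 11.4 CPM in WT ECs (SD, n = 3 each).

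LA-Tg versus WT is the control for expression of a lamin A transgene as such. No nuclear member passed the study thresholds in it (0 of 78, against 0.679% of all genes tested, 0.35% as higher and 0.329% as lower), and edgeR, limma-voom and DESeq2 each gave 0 of 78 before adjustment. Over all genes 121 (0.83%) were past p 0.05 before adjustment and 0 after it, also by DESeq2. The median log2 fold change of the 78 was 0.13, with a range of -0.18 to 0.28, and 68 of 78 values were above 0, beside 49% of all genes. It was 0.06 without LA-Tg replicate 3, the library with the highest nuclear share. The comparison shares its WT libraries with Prog-Tg versus WT, so the values of the 2 comparisons are not independent. For 7 of 78 members all LA-Tg libraries lay above all WT libraries, and for 0 below, against 1.92% and 2.03% of all genes tested. These 7 were Cox6c, Ndufb9, Ndufa6, Ndufa10, Cox7b, Cox6b1 and Cox5b, with log2 fold changes of 0.15 to 0.25. Ndufb9, an accessory subunit of complex I, was at 61.5, 64.7 and 67.4 CPM in LA-Tg and 57.1, 60.6 and 52.5 CPM in WT ECs. Cox6b1 was at 142, 155 and 160 CPM in LA-Tg and 133, 128 and 136 CPM in WT ECs. Cox5b, with a copy of 64.2% of its transcript, was named after its values were seen.

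Prog-Tg versus LA-Tg sets the mutant against the wildtype minigene. Again no nuclear member passed the study thresholds (0 of 78, against 1.25% of all genes tested, 0.555% as higher and 0.693% as lower), and the 3 tools each gave 0 of 78 before adjustment. Over all genes 250 (1.71%) were past p 0.05 before adjustment, or 412 with the replicate block. After adjustment edgeR gave 0 and DESeq2 gave 7. The median of the 78 log2 fold changes was -0.04, with a range of -0.25 to 1.03, and 30 of 78 were above 0, beside 49.6% of all genes. It was 0.03 without Prog-Tg replicate 1 and 0.02 without LA-Tg replicate 3. Leaving out Prog-Tg replicate 2 or LA-Tg replicate 1 gave -0.10 and -0.08, and leaving out Prog-Tg replicate 3 gave -0.02. Ndufa12 was higher in all Prog-Tg libraries and Ndufb9 lower in all, 1 member each, against 2.76% and 3.14% of all genes. Ndufb9 was at 55.5, 60.5 and 55.8 CPM in Prog-Tg and 61.5, 64.7 and 67.4 CPM in LA-Tg ECs, a log2 fold change of -0.17 ± 0.11 (SE, adjusted p = 0.999). The other complex I members with small p were Ndufa6, Ndufv2, Ndufb4 and Ndufs8, with log2 fold changes of -0.25, -0.19, -0.20 and -0.24.

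**Figure D3:**
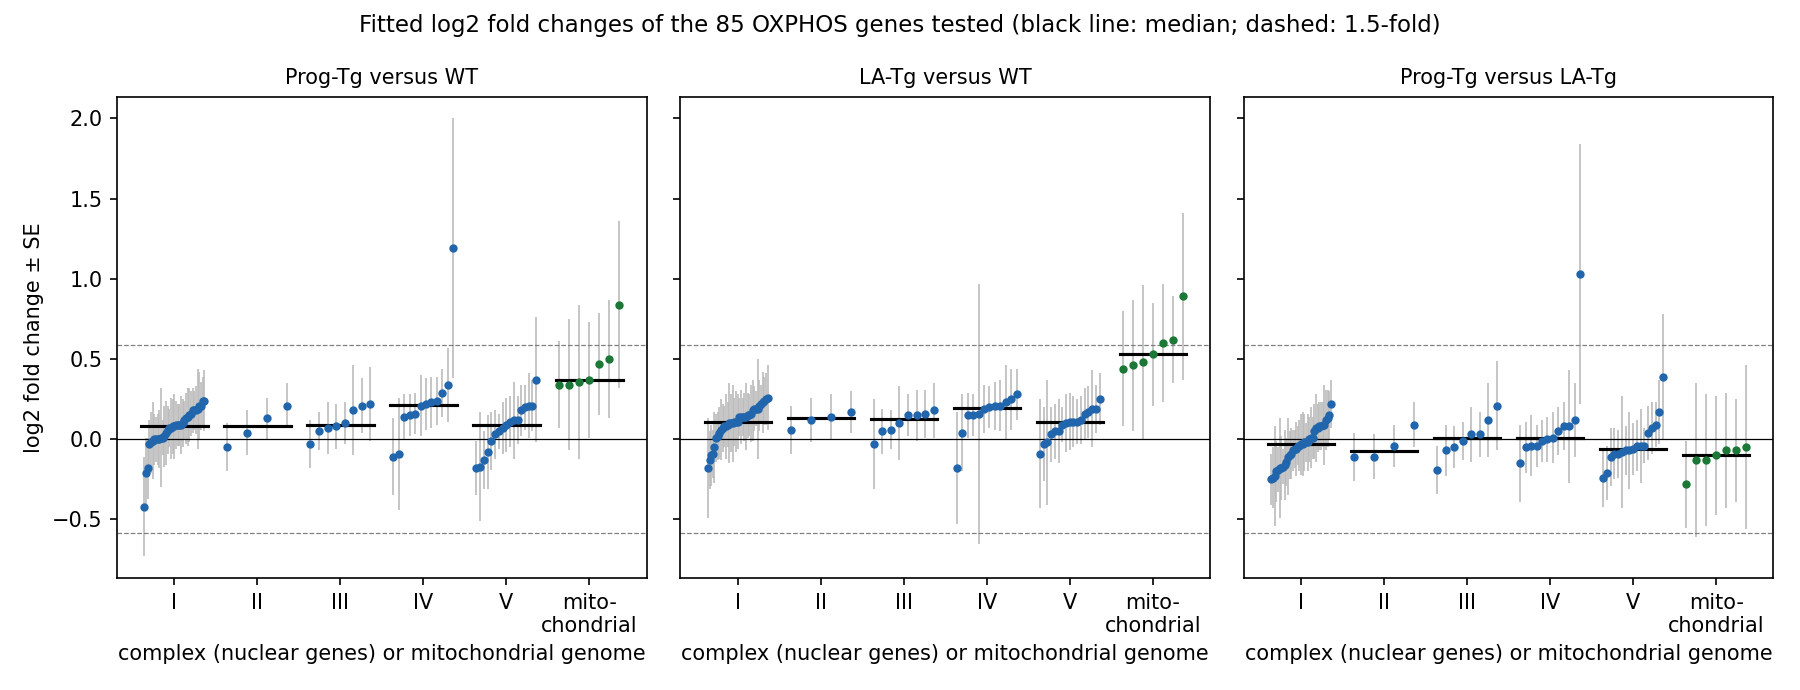
Fitted log2 fold changes (points) with SE (grey bars) of the 85 OXPHOS genes tested, by complex for nuclear genes and apart for mitochondrial genes, in Prog-Tg versus WT, LA-Tg versus WT and Prog-Tg versus LA-Tg. Black lines are medians and dashed lines mark 1.5-fold; nuclear points lie close to 0 except Cox6b2 at 1.19 in Prog-Tg versus WT and 1.03 in Prog-Tg versus LA-Tg, and mitochondrial points lie at 0.34 to 0.89 against WT with wide errors.

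Between libraries of one genotype the nuclear members varied little. Their within-genotype SD had a median of 0.18 on the log2 scale, against 0.36 over all genes tested and 0.25 over the 6114 genes of similar mean CPM. The median deviation of the 78 genes from their own means over 9 libraries was -0.11, 0.17 and 0.02 in Prog-Tg, -0.03, -0.01 and 0.18 in LA-Tg, and -0.07, -0.05 and -0.13 in WT libraries on the log2 scale, while that of all genes was between -0.01 and 0.02. LA-Tg replicate 3 held the highest value for 31 of the 78 genes and WT replicate 3 the lowest for 31, against 12.7% and 8.69% of all genes. The median deviations of the nuclear and of the mitochondrial genes were both lowest in WT replicate 3, at -0.13 and -0.39. Gene by gene, WT replicate 3 and Prog-Tg replicate 3 each held the lowest value for 2 of the 7 mitochondrial genes. In the other WT libraries the nuclear and mitochondrial medians were also both below 0 (-0.19 and -0.22 for the mitochondrial genes). The nuclear and mitochondrial medians were of opposite sign in Prog-Tg replicate 1 (-0.11 and 0.08), Prog-Tg replicate 3 (0.02 and -0.22) and LA-Tg replicate 1 (-0.03 and 0.04). They were also of opposite sign, and further apart, in LA-Tg replicates 2 and 3. In LA-Tg replicate 2 the 7 mitochondrial genes were all at their highest, with a median deviation of 0.81, while the nuclear genes were at -0.01. In LA-Tg replicate 3 the mitochondrial genes were at -0.32 and the nuclear genes at 0.18. Only in Prog-Tg replicate 2 were both above their means by more than 0.1, at 0.66 and 0.17.

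**Figure D4:**
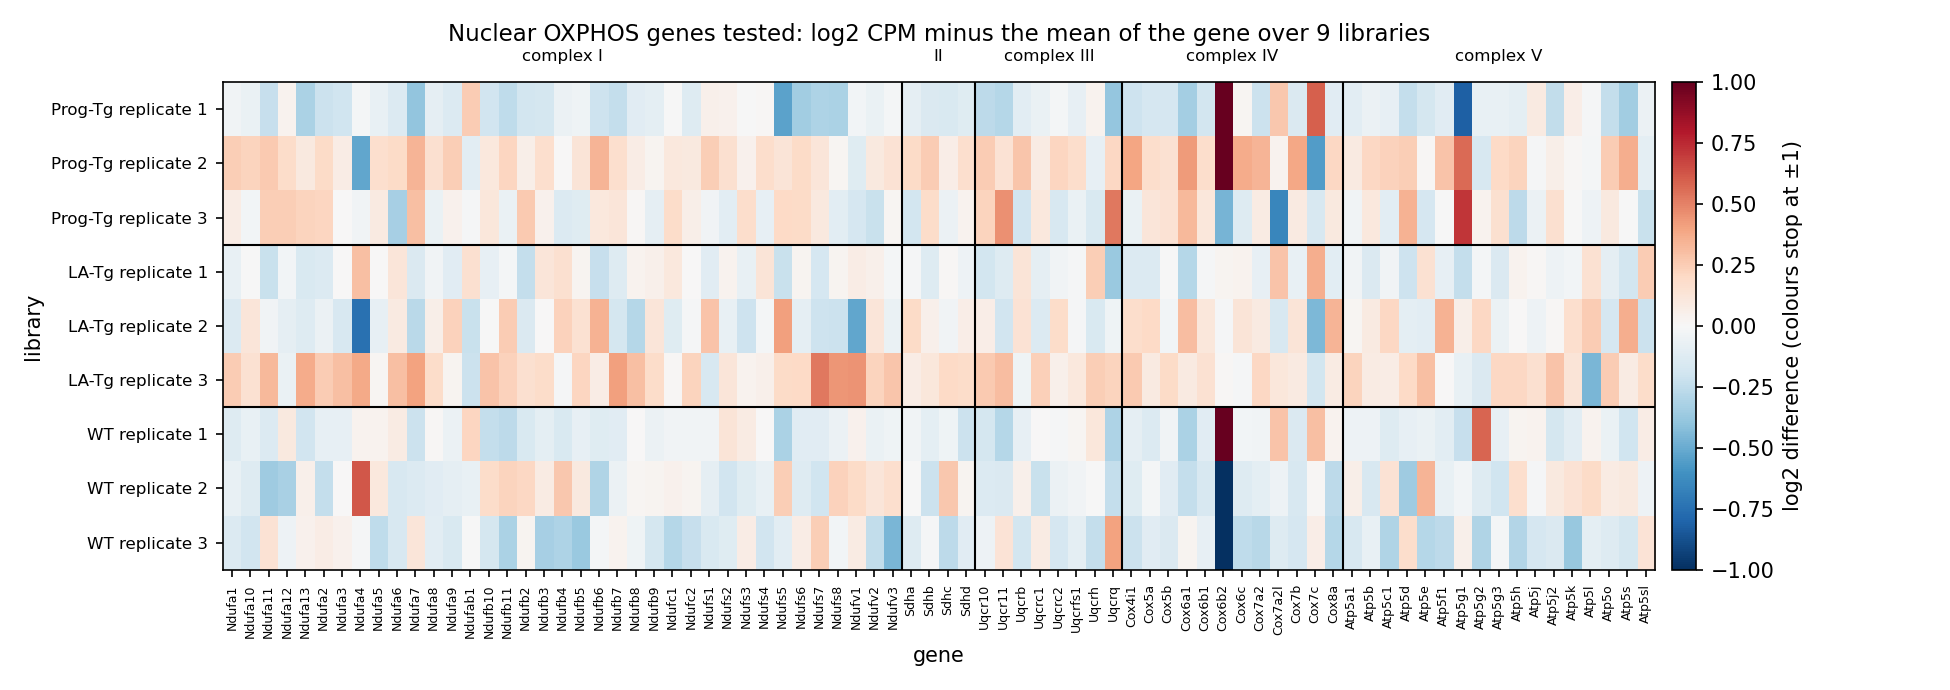
Levels of the 78 nuclear OXPHOS genes tested (columns, by complex) in the 9 libraries (rows), as log2 CPM minus the gene's mean over the libraries, with colours that stop at ±1. Prog-Tg replicate 2 and LA-Tg replicate 3 are mostly red (medians 0.17 and 0.18) and WT replicate 3 mostly blue (median -0.13), and Cox6b2 has the strongest colours of any gene.

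Complex IV and ATP synthase have subunits with tissue isoforms. In each complex IV family with muscle or testis forms the general isoform made up nearly all of the level per kb. Cox4i1 held 99.1% to 100% of its family in each library. Cox4i2, the isoform known from lung and from hypoxic cells, had 100, 18 and 16 counts in all in Prog-Tg, LA-Tg and WT ECs. Of these, 99 came from 1 library, the most deeply sequenced Prog-Tg replicate 3. In CPM that library was still highest, at 1.43, followed by LA-Tg replicate 3 at 0.799. Both also had the highest sums of pericyte and smooth muscle markers, at 93.6 and 295 CPM, and the part of such cells was not tested. Cox6a1 held at least 99.9% of its family, while the heart and muscle form Cox6a2 had 3 counts in 9 libraries. The muscle forms Cox7a1 and Cox8b had 31 and 4 counts, and the testis forms Cox7b2 and Cox8c had 0. The Cox7a family was the exception by name, since Cox7a2 held 43% to 63.8% and Cox7a2l, a factor of supercomplex assembly rather than an alternative subunit, nearly all of the rest.

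Cox6b2, known as a testis isoform, was the only minor form of complex IV above the filter, at 0.391% to 4.55% of its family. It was at 9.44, 6.82 and 2.15 CPM in Prog-Tg, 3.04, 2.96 and 3.00 CPM in LA-Tg, and 6.15, 0.961 and 0.835 CPM in WT ECs. The LA-Tg libraries were nearly equal, while Prog-Tg and WT spread widely and overlapped. The log2 fold change was 1.19 ± 0.81 (SE) in Prog-Tg versus WT (adjusted p = 0.83). Without WT replicate 1, the WT library with the high value, it was 2.76 and passed the study thresholds, as did the value of 1.73 in LA-Tg versus WT. In Prog-Tg versus WT it was 0.77 without WT replicate 3, 0.79 without WT replicate 2 and 0.72 without Prog-Tg replicate 1, none of which passed. With a within-genotype SD of 1.10 it was the most variable nuclear member.

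The c-ring of ATP synthase is encoded by 3 genes whose mature proteins are the same. Atp5g3 held 97.9% to 98.6% of the family level per kb, at 171, 206 and 201 CPM in Prog-Tg, 162, 172 and 207 CPM in LA-Tg, and 170, 156 and 177 CPM in WT ECs. Atp5g1 was at 2.09, 5.45 and 6.05 CPM in Prog-Tg, 3.11, 3.83 and 3.5 CPM in LA-Tg, and 3.14, 3.61 and 3.81 CPM in WT ECs, so that Prog-Tg held both the lowest and the highest values. Without Prog-Tg replicate 1 its log2 fold change in Prog-Tg versus WT, 0.37 ± 0.39 (SE) with all libraries, was 0.70 and passed the study thresholds, and likewise 0.72 in Prog-Tg versus LA-Tg. Atp5g2 averaged 1.11 ± 0.0747 CPM in Prog-Tg, 1.18 ± 0.146 CPM in LA-Tg and 1.24 ± 0.430 CPM in WT ECs (SD, n = 3 each). Both Atp5g1 and Atp5g2 share sequence with copies elsewhere, so their share of the family is uncertain.

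**Figure D5:**
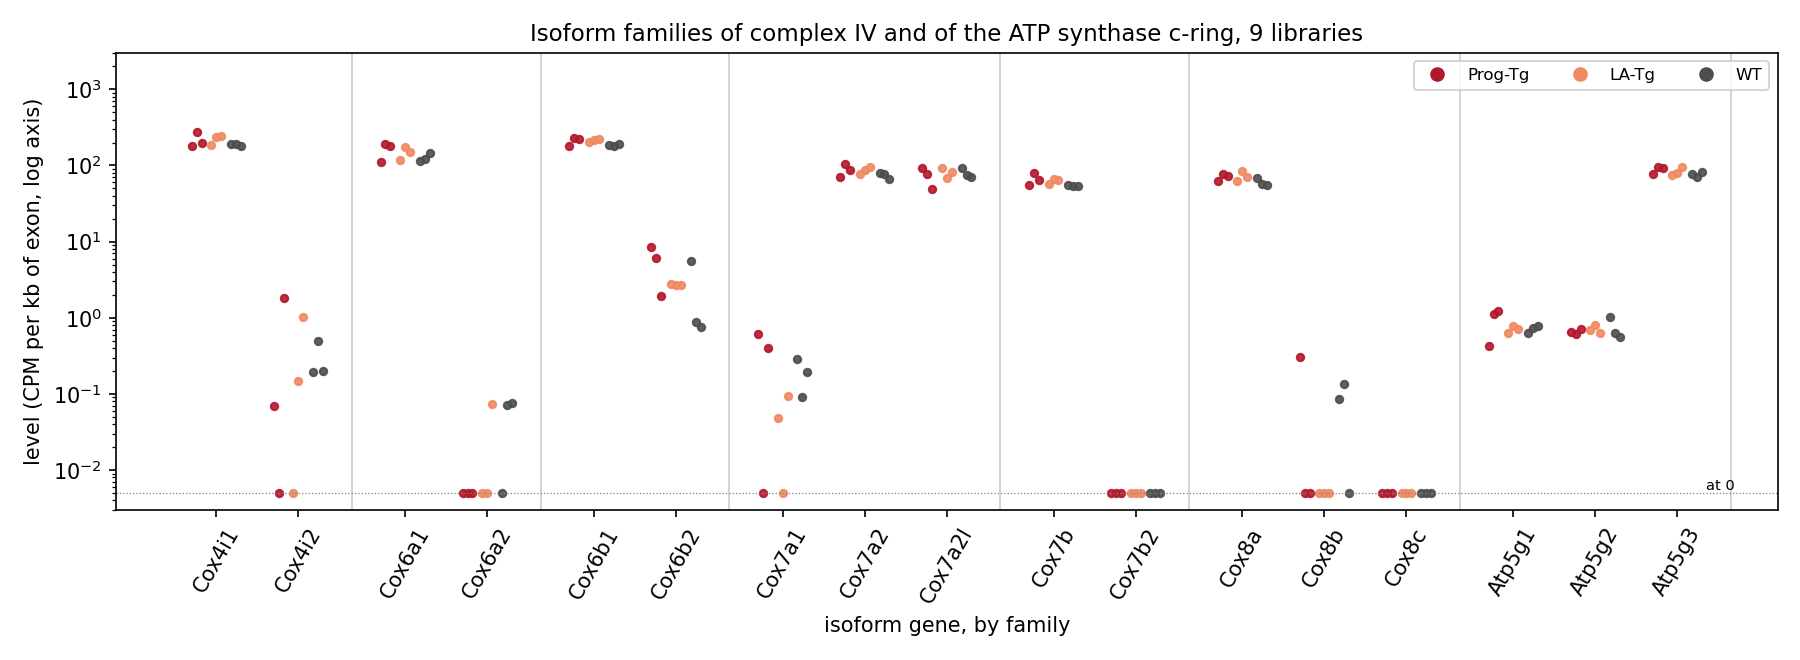
Levels in CPM per kb of exon (log axis) of the isoform genes of complex IV and of the ATP synthase c-ring, 1 point per library of Prog-Tg, LA-Tg and WT ECs, with libraries at 0 drawn on the dotted line. The general isoforms average 61.3 (Cox7b) to 209 CPM per kb (Cox4i1), while Cox4i2 averages 0.436, Cox6b2 3.55 and the other muscle and testis forms at most 0.192.

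Genes that assemble, supply or regulate the chain gave few calls. Of the assembly factors tested, 0 of 16 for complex I, 0 of 4 for complex II, 0 of 6 for complex III, 0 of 23 for complex IV and 0 of 5 for complex V passed the study thresholds in Prog-Tg versus WT. Surf1, an assembly factor of complex IV, averaged 23.5 ± 3.44 CPM in Prog-Tg, 24.4 ± 2.49 CPM in LA-Tg and 18.4 ± 1.64 CPM in WT ECs (SD, n = 3 each), with a log2 fold change of 0.36 ± 0.16 (SE) in Prog-Tg versus WT. None of 77 mitochondrial ribosomal protein genes (median log2 fold change 0.08), of 30 mitochondrial DNA and RNA factors (0.04), of 20 genes of the electron carriers (0.03), of 18 genes of the TCA cycle (0.10) or of 6 exchange carriers (0.16) passed either. Pdha1, the alpha subunit of pyruvate dehydrogenase, averaged 102 ± 16.4 CPM in Prog-Tg and 74.9 ± 4.08 CPM in WT ECs (SD, n = 3 each), a log2 fold change of 0.44 ± 0.20 (SE, adjusted p = 0.83).

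Only 2 genes of these lists passed the study thresholds in Prog-Tg versus WT, and neither had a small adjusted p. Ppargc1a, the coactivator that drives mitochondrial biogenesis, was at 2.64, 2.84 and 1.04 CPM in Prog-Tg, 5.48, 3.89 and 4.15 CPM in LA-Tg, and 5.15, 10.6 and 4.54 CPM in WT ECs. Ppargc1a was lower in all Prog-Tg libraries than in any other library, with a log2 fold change of -1.65 ± 0.48 (SE, adjusted p = 0.83) against WT. It was the 1 call among 10 biogenesis regulators tested, beside 2.76% of all genes tested. Pdk1, the kinase that inhibits pyruvate dehydrogenase and is known to be induced in hypoxia, was at 51.2, 83.0 and 76.9 CPM in Prog-Tg, 33.0, 76.7 and 27.6 CPM in LA-Tg, and 42.4, 33.3 and 38.8 CPM in WT ECs. LA-Tg replicate 2 was as high as the Prog-Tg libraries for Pdk1, and the log2 fold change was 0.88 ± 0.38 (SE, adjusted p = 0.83) in Prog-Tg versus WT. It was the 1 call among 5 hypoxia-linked genes tested, beside the same background of 2.76%. Lists this short allow nothing to be read from 1 call. In LA-Tg versus WT and in Prog-Tg versus LA-Tg 0 genes of these lists passed the study thresholds.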

How the data were processed

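The authors sequenced poly(A) RNA with a directional kit, aligned reads to GRCm38 with STAR 2.5.1b and deposited counts per gene made with HTSeq 0.5.4p3. Its settings for strand and for reads with several places are not given in the sources used here. The deposited count table of the 9 EC libraries was used as it stands, and CPM were computed from it. The comparison tables of the study hold fold changes, p-values and group means and were not used, nor were the tables of miRNAs. Genes passed edgeR's filter at a minimum count of 10 and a total of 15.

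The main test was the quasi-likelihood F test of edgeR 4.0.16 (R 4.3.3) with TMM factors and genotype as the only term, fitted on all 9 libraries, with Benjamini-Hochberg adjustment over the 14584 genes tested. The study used limma-voom, which was run as an alternative (limma 3.58.1), as was DESeq2 1.42.0. Other alternatives were RLE factors, library size alone, the mitochondrial genes left out, other filters, only the genotypes compared, a replicate block and each library left out. The edgeR fit was tested on simulated counts of Prog-Tg versus WT. Of 100 genes simulated with a log2 change of 1 in either direction, 64 passed the study thresholds. Only 1 of them reached an adjusted p under 0.05. Of the genes simulated without a change, 4.1% passed the study thresholds, against 2.76% of all genes in the real comparison. The changed genes were drawn from all genes tested, and counts were simulated independently for each gene. In the real comparison the median SE was 0.29 over all genes, 0.16 for nuclear and 0.37 for mitochondrial members. The simulated rates therefore do not tell how often a change in OXPHOS genes would be called. Copies in the genome were found with blastn 2.17.0 on GRCm38, and exon lengths came from GENCODE M21, which holds 99.63% of the gene IDs.

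Members and gene lists were chosen with earlier results of these data known. The genes named were the mitochondrial and Sdh genes, the isoform families, the 10 nuclear members of smallest p in each comparison, the 2 highest and the 1 lowest per kb in each complex, and up to 3 per other list by p in Prog-Tg versus WT. Replicate numbers in Prog-Tg and LA-Tg went together in the values (correlations of deviations 0.675, 0.63 and 0.35), so the block is given beside that comparison. That choice rests on these same data. The study describes WT and Prog-Tg ECs as coming from littermate pairs, but no source used here ties a pair to a replicate number.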

Additional observations from a re-analysis of the deposited data

How the results depend on the processing

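The medians of the nuclear and of the mitochondrial OXPHOS genes kept their sign in each comparison under the other tests, scalings and filters, with only the genotypes compared and with the replicate block. Under the block the nuclear medians were 0.09, 0.13 and -0.03 and the mitochondrial ones 0.33, 0.48 and -0.08 in Prog-Tg versus WT, LA-Tg versus WT and Prog-Tg versus LA-Tg, and no OXPHOS gene was called. Deviations of same-numbered libraries were positively correlated for every replicate number only between Prog-Tg and LA-Tg. For replicates 1, 2 and 3 the correlations were 0.491, -0.028 and 0.474 between Prog-Tg and WT. Between LA-Tg and WT they were 0.405, -0.361 and -0.066. Libraries of unlike number gave -0.53 to 0.168 between Prog-Tg and WT and -0.5 to 0.436 between LA-Tg and WT. Between Prog-Tg and LA-Tg they gave -0.588 to 0.09. Deviations within a genotype sum to 0, so these correlations are not independent of each other. In the 2 comparisons with WT the block, which rests on a shared number, moved genes at an unadjusted p under 0.05 to 669 from 496 and to 294 from 121.

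After adjustment over all genes, DESeq2 called 2 genes in Prog-Tg versus WT and 7 in Prog-Tg versus LA-Tg, against 0 by edgeR. In LA-Tg versus WT 1 mitochondrial gene, mt-Nd6, passed the study thresholds with DESeq2 and also 1, the same gene, without the low-count filter. With 1 library left out, the nuclear genes past the study thresholds were 0 to 1 in each comparison (Atp5g1 or Cox6b2), the mitochondrial genes 0 to 2 in LA-Tg versus WT (mt-Nd6, and mt-Nd1 at 0.74 without LA-Tg replicate 3), and the calls after adjustment over all genes 0 to 1 in Prog-Tg versus WT. The nuclear medians then ranged over 0.04 to 0.17, 0.06 to 0.18 and -0.10 to 0.03, and the mitochondrial ones over 0.17 to 0.58, 0.18 to 0.74 and -0.43 to 0.28. The cause of these shifts was not tested. The 95% interval lay within 1.5-fold for 54, 56 and 57 of the 78 nuclear genes in the 3 comparisons but for 0 of the 7 mitochondrial genes in each, so that the absence of calls says less about the mitochondrial genes, and the 6 listed at 0 could not be assessed.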
